A study of Mus musculus with 36 samples.

Results

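Among 36 mouse spleens profiled on 1 array each, the 3 titled ART8, NON5 and NON6 carried strong transcripts of pancreatic acinar cells. They are compared here with 10 spleens, ART1 to ART7, ART9, NON1 and NON2, and the other 23 spleens serve as a further background. The 3 spleens were chosen by their measured acinar transcripts, with Cela3b, Cel, Zg16, Ctrl, Prss2 and Ctrc as the marker genes. The difference between the 3 and the 10 is therefore a description, with no test. The study compared 18 arthritic with 18 non-arthritic F2 mice, all 4 months old, and its title places them in work on mice deficient for the interleukin 1 receptor antagonist. The labels give neither genotype, strain nor sex for a single mouse, and no treatment. The 3 acinar-positive spleens came from 1 arthritic and 2 non-arthritic mice, the 10 comparison spleens from 8 arthritic and 2 non-arthritic mice, and the other 23 from 9 and 14. Each array stands for 1 spleen, and precision is limited by how few arrays a set holds.

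The 13 arrays of both sets formed 1 of 3 clusters of the 18 hybridisation control probe sets, which are added to every array in fixed amounts. The labels do not name a batch. RNA quality overlapped between the sets, with a Gapdh 3 prime to 5 prime ratio of 0.735 to 0.888 in the 3 arrays and 0.679 to 0.837 in the 10. The deposited values are MAS5 intensities with the same trimmed mean on each array. They are given below as log2(intensity + 16), on which a difference of 1 is 2-fold and changes of dim genes are understated. Spleen identity was plain in the 3 arrays: Tlx1, a homeobox gene needed to form the spleen, read 10.04, 9.81 and 9.41 in ART8, NON5 and NON6, inside the comparison range of 9.22 to 10.11. In bulk tissue, fewer cells of a type and less RNA per cell cannot be told apart.

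The pancreas is an organ of mostly exocrine acinar cells, which make digestive enzymes and store them in zymogen granules, with ducts that drain the juice and islets that release hormones. Its tail lies against the hilum of the spleen. Acinar enzyme genes are among the most heavily transcribed genes of any tissue, and many are driven by PTF1, a complex of the basic helix-loop-helix factor Ptf1a that binds an E-box paired with a TC-box.

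The promoters of the enzyme genes that mark these spleens are shown because the genes were high together in the same 3 spleens. The sequences are RefSeq promoters on build GRCm38.p6, cut to the 250 bases before the start of transcription and printed 5′ to 3′ on the strand of the gene. Capitals mark the E-box letters CACCTG, the TC-box letters TTTCCC and the TATA box letters TATAAA, each on either strand. The 4 marker genes with an entry come first, followed by Ctrb1, the gene with the largest difference. They lie at chr4:137430521-137430770 (minus strand) for Cela3b, chr2:28563404-28563653 (minus) for Cel, chr8:105933863-105934112 (minus) for Ctrl, chr6:41521526-41521775 (plus) for Prss2 and chr8:111691011-111691260 (minus) for Ctrb1.
Cela3b: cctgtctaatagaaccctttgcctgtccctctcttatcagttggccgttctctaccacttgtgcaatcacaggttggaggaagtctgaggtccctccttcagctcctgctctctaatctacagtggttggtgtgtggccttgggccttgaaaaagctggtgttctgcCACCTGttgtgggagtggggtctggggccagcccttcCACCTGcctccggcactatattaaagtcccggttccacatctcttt
Cel: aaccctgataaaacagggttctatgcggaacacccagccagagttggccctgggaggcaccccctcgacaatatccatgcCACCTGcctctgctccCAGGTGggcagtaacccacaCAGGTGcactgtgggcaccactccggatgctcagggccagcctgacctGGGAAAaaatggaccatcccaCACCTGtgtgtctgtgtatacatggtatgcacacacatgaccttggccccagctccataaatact
Ctrl: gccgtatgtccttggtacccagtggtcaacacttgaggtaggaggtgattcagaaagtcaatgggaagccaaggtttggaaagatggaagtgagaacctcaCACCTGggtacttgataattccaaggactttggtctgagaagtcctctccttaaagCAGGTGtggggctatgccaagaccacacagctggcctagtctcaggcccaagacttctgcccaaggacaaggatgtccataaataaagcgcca
Prss2: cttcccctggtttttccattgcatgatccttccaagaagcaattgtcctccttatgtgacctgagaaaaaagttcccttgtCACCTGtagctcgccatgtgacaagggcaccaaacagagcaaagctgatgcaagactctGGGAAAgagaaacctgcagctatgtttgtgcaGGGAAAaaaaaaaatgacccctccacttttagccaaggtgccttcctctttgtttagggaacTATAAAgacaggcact
Ctrb1: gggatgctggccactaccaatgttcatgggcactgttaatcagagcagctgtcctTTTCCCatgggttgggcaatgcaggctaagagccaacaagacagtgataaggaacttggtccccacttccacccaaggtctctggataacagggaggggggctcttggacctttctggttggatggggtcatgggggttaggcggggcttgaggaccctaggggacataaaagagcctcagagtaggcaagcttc
Of the 27 acinar genes that were higher in the 3 spleens, 21 had a promoter entry. The E-box letters stood in 11 of the 21 (52.4%), against 17.1% of all 27025 promoters of the same length. The TC-box letters stood in 8 (38.1%, against 21.9%), both together in 4 (19.0%, against 3.63%), and the TATA box letters in 5 (23.8%, against 13%). The 4 with both were Cel, Cela1, Cela2a and Prss2. The distance between E-box and TC-box letters was not used, so a promoter with both need not hold a paired PTF1 site. A match is a description of letters and shows no binding.

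The 6 marker genes stood far above the comparison spleens in each of the 3. Cela3b, an elastase-like protease, had an intensity of 6578 in ART8, 10488 in NON5 and 2906 in NON6, and the 10 comparison spleens ran from 164.1 over a median of 300.6 to 352.4. Cel, the bile salt-activated lipase, read 7232, 10509 and 2784, against 21.8, 75.9 and 196.5. Zg16, a lectin of the zymogen granule membrane, read 8150, 12653 and 5471, against 19.7, 96.8 and 130.5. NON5 was the highest and NON6 the lowest of the 3 in each of these genes.
The proteases gave the same picture. Ctrl, a chymotrypsin-like protease, read 8058, 13846 and 4080, against 37.6, 132.9 and 314.4. Prss2, a trypsinogen, read 9876, 14174 and 5088, against 82.9, 155.0 and 262.1, and Ctrc, a chymotrypsin that acts on trypsinogen, read 5644, 9938 and 3297, against 24.5, 116.8 and 201.5. No marker overlapped between the sets.
The mean log2 level of the 6 markers was 12.87 in ART8, 13.53 in NON5 and 11.90 in NON6. Just outside the choice, the highest levels were 7.69 in NON2 among the 10 and 7.80 in NON7 among the 23.

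**Figure D1:**
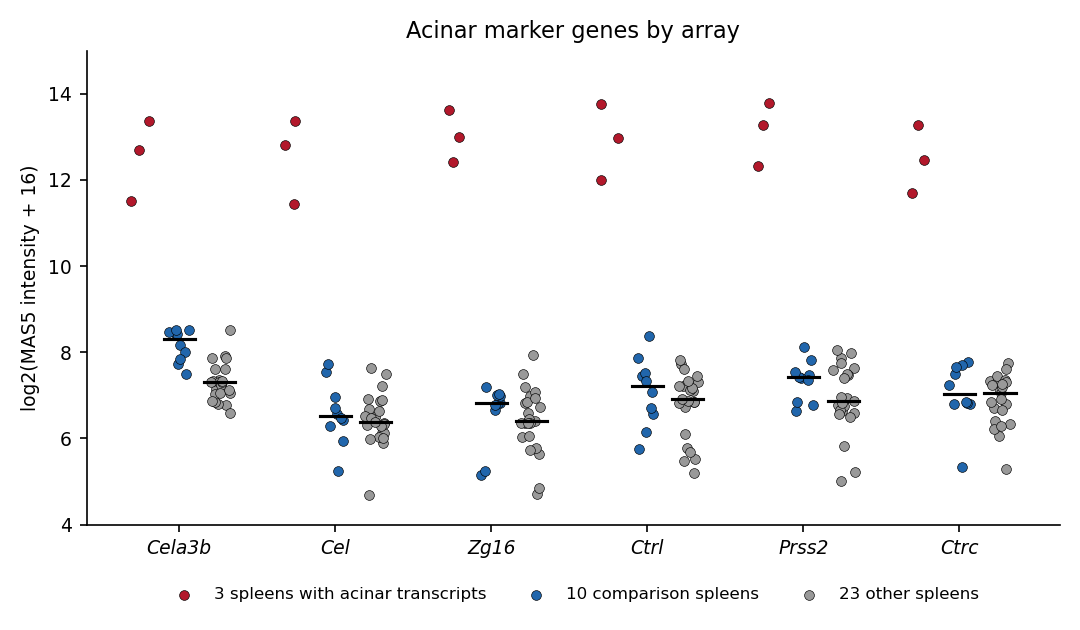
Level of the 6 marker genes, as log2(MAS5 intensity + 16), in each of the 36 arrays: red points are the 3 acinar-positive spleens, blue the 10 comparison spleens and grey the other 23, with bars at the medians of the latter sets. The red points stand apart for each gene, and the blue points of Cela3b lie above most grey ones.

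Across 18193 genes, each given by its brightest probe set, 31 were at least 2-fold higher in the 3 spleens with every one of the 3 above all 10 (0.170%), and 13 were lower by the same rule (0.0715%). The rule of choice used this contrast, so nothing is read from the share. Of the 31, 27 are on the acinar lists, which held 45 measured genes with a median difference of 2.78. The median over all genes was 0.0018, and 50.4% of them were positive. Another 46 genes passed 2-fold upwards and 73 downwards while the sets overlapped.

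All 11 measured digestive proteases were higher without overlap, with a median difference of 5.79. Ctrb1, chymotrypsinogen B, read 13.89 in ART8, 14.58 in NON5 and 13.25 in NON6 on the log2 scale, against 4.77, 5.36 and 7.23 as lowest, median and highest of the 10. Its difference of 8.34 was the largest of all genes, a 323.0-fold ratio on this scale. The carboxypeptidases Cpb1 (8.22) and Cpa1 (8.17), which trim amino acids from the ends of peptides, came next, and Cela2a, an elastase, followed at 7.52.
The smallest differences among the proteases belonged to Cela1 and Klk1. Cela1, an elastase, read 14.03, 14.50 and 13.42, against 10.72, 11.28 and 11.60, so it was bright in all 13 spleens and its difference was 2.78. Klk1, tissue kallikrein, differed by 1.38 at its brightest probe set and by 3.26 to 3.53 at the other 3. Trypsinogens and kallikreins have near-identical copies, so which copy gave the signal is uncertain for Prss2, Prss3 and Klk1. Klk1b5, a further kallikrein picked after its values were seen, read 7.76, 7.26 and 6.75 with NON6 below the highest comparison value of 6.85.

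Of 7 measured lipases, amylases and ribonucleases, 6 were higher, with a median difference of 6.17. Pnliprp1, a lipase-related protein, had 12.27, 12.85 and 11.05 against 4.32, 4.66 and 6.45, a difference of 7.16. Clps, the colipase that anchors pancreatic lipase to fat droplets, differed by 6.67, Rnase1 by 6.40 and Pnliprp2 by 6.17. The phospholipase Pla2g1b differed by 4.67 at its brightest probe set, but only 2 of its 4 probe sets were higher and the lowest differed by -0.05. The exception was Amy1, the amylase of salivary gland and liver, at 6.62, 6.46 and 6.07 against 5.78, 6.15 and 6.85. The pancreatic amylase Amy2a5 and the lipase Pnlip had no probe set that names 1 gene, and so are not described.

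Of 12 granule and Reg family genes, 7 were higher, with a median difference of 2.99. Sycn (syncollin, a protein of the granule membrane) differed by 6.80, Zg16 by 6.44, Dmbt1 by 6.07 and Reg1 by 4.45. Gp2, the main granule membrane glycoprotein, and Spink1, the trypsin inhibitor packed with the enzymes, each differed by 3.07. Cuzd1, another granule membrane protein, differed by 2.92.
The other Reg genes, which acinar cells raise in pancreatitis, overlapped between the sets. Reg3b read 6.50, 7.08 and 7.78 against 5.90, 6.62 and 7.23, and Reg3a 4.48, 4.29 and 5.96 against 4.47, 4.74 and 6.67. Reg2 differed by 0.23, Reg3d by 0.17 and Reg3g by 0.01. NON6, the spleen with the least enzyme signal, was the highest of the 3 in Reg2, Reg3a, Reg3b, Reg3d and Reg3g.

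Outside the secreted proteins the differences were smaller. Of 8 further genes of the acinar cell, 3 were higher, Pdia2 (1.93), a disulphide isomerase of the pancreas, Cckar (1.52), the receptor by which cholecystokinin triggers secretion, and Nupr1 (1.39), a stress-response protein. Cckar and Nupr1 overlapped the other 23 spleens, and Pdia2 did not. Cckar reached 6.72 there, above ART8 (6.48) and NON6 (6.29), and Nupr1 reached 9.01, above NON6 (8.85). Serpini2, Aqp12 and Tmed6 passed 2-fold with overlap, at 1.59, 1.40 and 1.37.
None of 7 acinar transcription regulators was called, with a median of 0.34. Ptf1a read 6.80, 6.72 and 6.32 against 5.13, 5.98 and 7.19. Bhlha15 (Mist1, which shapes the secretory cell) read 8.75, 8.81 and 8.71 against 7.43, 8.40 and 8.73, and Nr5a2, a nuclear receptor, differed by 0.39. None of 20 genes for protein folding in the endoplasmic reticulum was called either, with a median of -0.05. The largest difference among them was -0.30, for Pdia6.

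**Figure D2:**
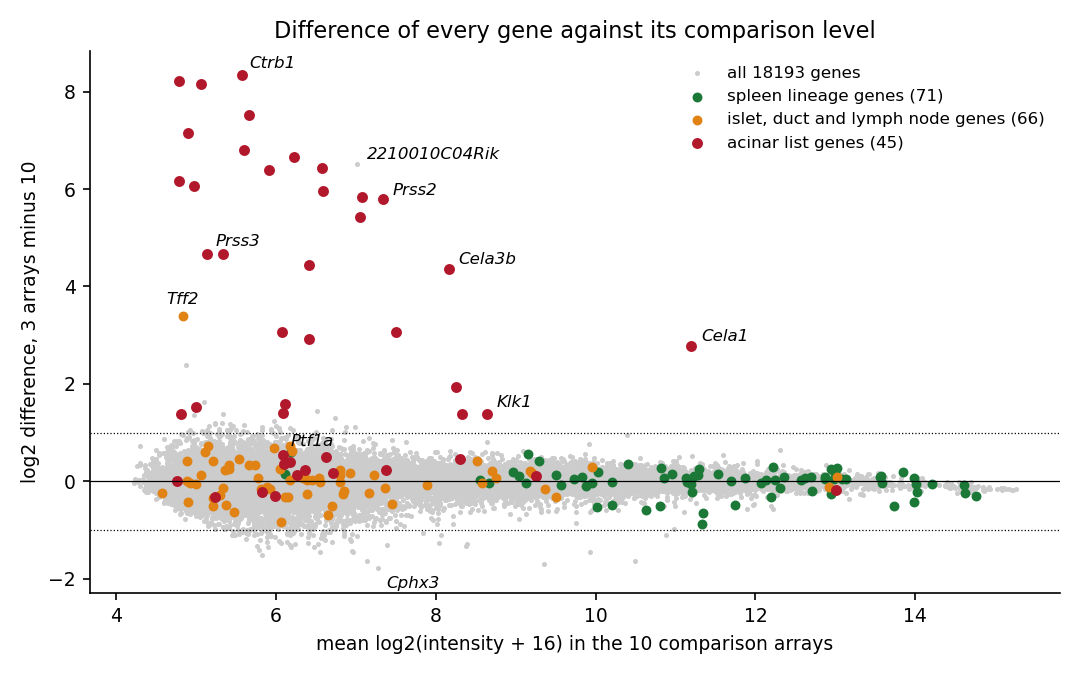
Difference between the mean of the 3 acinar-positive arrays and the mean of the 10 comparison arrays (log2, vertical) against the comparison mean (log2(intensity + 16), horizontal) for each of 18193 genes, with dotted lines at 2-fold. Acinar genes (red) reach 8.34 at Ctrb1, while genes of islets, ducts and lymph nodes (orange) other than Tff2 and genes of the spleen lineages (green) stay within the dotted lines.

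In 26 of the 27 higher acinar genes NON5 was above ART8 and ART8 above NON6. Taking off the comparison mean, the excess intensity in NON5 was a median of 1.62 times that in ART8 over the 27 genes, and in NON6 0.573 times. Without Prss3 the ratios ran from 1.38 to 3.36 and from 0.248 to 0.799. The 67 probe sets that were higher without overlap made up 1.06% of the summed signal of ART8, 1.59% of NON5 and 0.595% of NON6. In the 10 they made up 0.0166% to 0.0305%.
Prss3 departed from the order. It read 10.72 in ART8, 8.91 in NON5 and 9.81 in NON6, so the spleen with the most acinar signal had the least of this trypsinogen, against a highest comparison value of 6.05. Its excess in NON5 was 0.269 times that in ART8. Prss3 had 1 probe set naming 1 gene, so no other probe set could be set beside it.

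**Figure D3:**
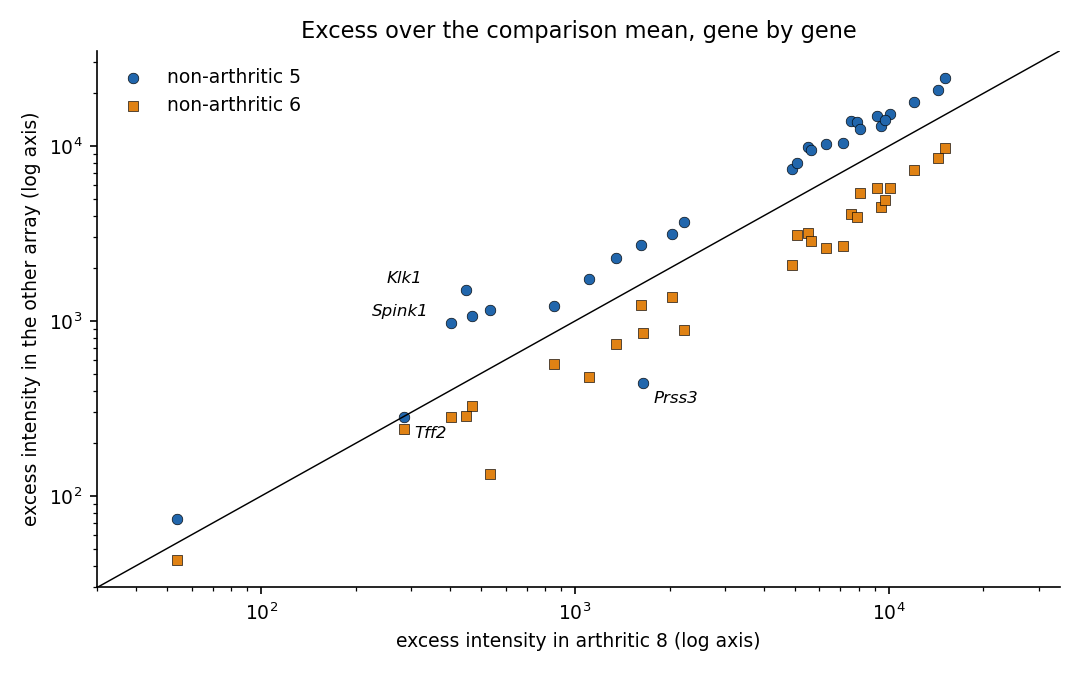
Excess of linear intensity over the comparison mean in NON5 (blue circles) and NON6 (orange squares) against that in ART8 for the 27 higher acinar genes, 2210010C04Rik and Tff2, on log axes with the line of equality. Circles lie above the line and squares below it, apart from the circle of Prss3 and the near-equal circle of Tff2.

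Of the 31 higher genes, 4 are on no acinar list. 2210010C04Rik, a trypsinogen-like gene, read 13.57, 14.14 and 12.86 against 6.56, 6.88 and 7.76, in the order of the enzymes. Tff2, a trefoil peptide of mucus-secreting epithelium held on the duct list, read 8.30, 8.28 and 8.08 against 4.40, 4.82 and 5.38. It was nearly level across the 3 spleens, with a ratio of excess of 0.992 in NON5 and 0.850 in NON6, below the 1.38 that was lowest for NON5 among the enzymes other than Prss3. Slc6a11, a GABA transporter, and Pkdrej were dim, at 6.42 to 6.94 and 6.43 to 6.69, and differed by 1.62 and 1.10. Both overlapped the other 23 spleens, whose highest values were 6.58 and 6.81.

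No islet gene was called among 30 measured, and their median difference was 0.09. Ins2, insulin, read 5.74 in ART8, 7.75 in NON5 and 7.24 in NON6 against 5.54, 6.19 and 6.95, so NON5 and NON6 lay above the 10 and ART8 inside them. Gcg, glucagon, read 6.11, 6.33 and 4.45 against 4.39, 5.04 and 6.32. The peptide hormones Sst and Pyy differed by -0.32 and -0.33. Chgb, a protein of hormone granules, read 4.80, 5.87 and 6.91 against a highest comparison value of 5.69. Pdx1, the regulator of beta cells, differed by 0.45 and overlapped. Ins1 had no probe set naming 1 gene. The label of pancreas tissue thus rests on acinar transcripts, and no hormone gene measured stood above the 10 in all 3 spleens.

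Of 20 duct and epithelial genes, Tff2 alone was called, and the median was -0.01. Krt19, a keratin of duct cells, read 6.51, 6.52 and 4.83 against 5.82, 6.59 and 7.37. Cftr, the chloride channel of ducts, read 4.26, 4.26 and 5.57 against 4.17, 5.32 and 6.24, and Pigr, which carries antibodies across epithelia, differed by 0.63. These 3 lay inside or below the comparison range, except that Pigr in NON6 (7.48) passed its highest value of 7.17.

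None of 16 lymph node genes was called, with a median of -0.06. Glycam1, the L-selectin ligand of high endothelial venules, read 4.49, 4.60 and 4.33 against 4.30, 4.58 and 7.0, and the highest value belonged to NON1, a comparison spleen. Ackr4, a chemokine scavenger of lymphatic lining, differed by -0.84, and Lyve1, a receptor of lymphatic vessels, by -0.51. Reln, which lymphatic endothelium secretes, read 8.76, 8.95 and 9.10 against a highest value of 8.92.

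The comparison spleens, clean of strong acinar signal, still held transcripts of other tissues. Adipose genes were mostly lower in the 3 spleens, with 14 of 15 negative and a median of -0.43, and none was called. The median was -0.28 within arthritic mice and -1.29 within non-arthritic mice, where NON1 and NON2 alone were the comparison. In each, 14 of 15 were negative. Adipoq, the fat cell hormone adiponectin, read 6.73, 6.13 and 8.30 against 6.51, 8.51 and 10.43, and Cyp2e1 7.92, 5.89 and 9.14 against 6.71, 9.79 and 11.31. The summed intensity of the list was 11781 to 12354 in the 3, inside the range of 8612 to 27666 in the 10.
Liver, gut and salivary genes had a median of 0.02, with Alb, serum albumin, at 10.20 in ART9 and at 6.60 to 8.10 in the 3. Mesothelial genes had a median of -0.10, and those of nerve and muscle 0.06. No gene of these lists was called.

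**Figure D4:**
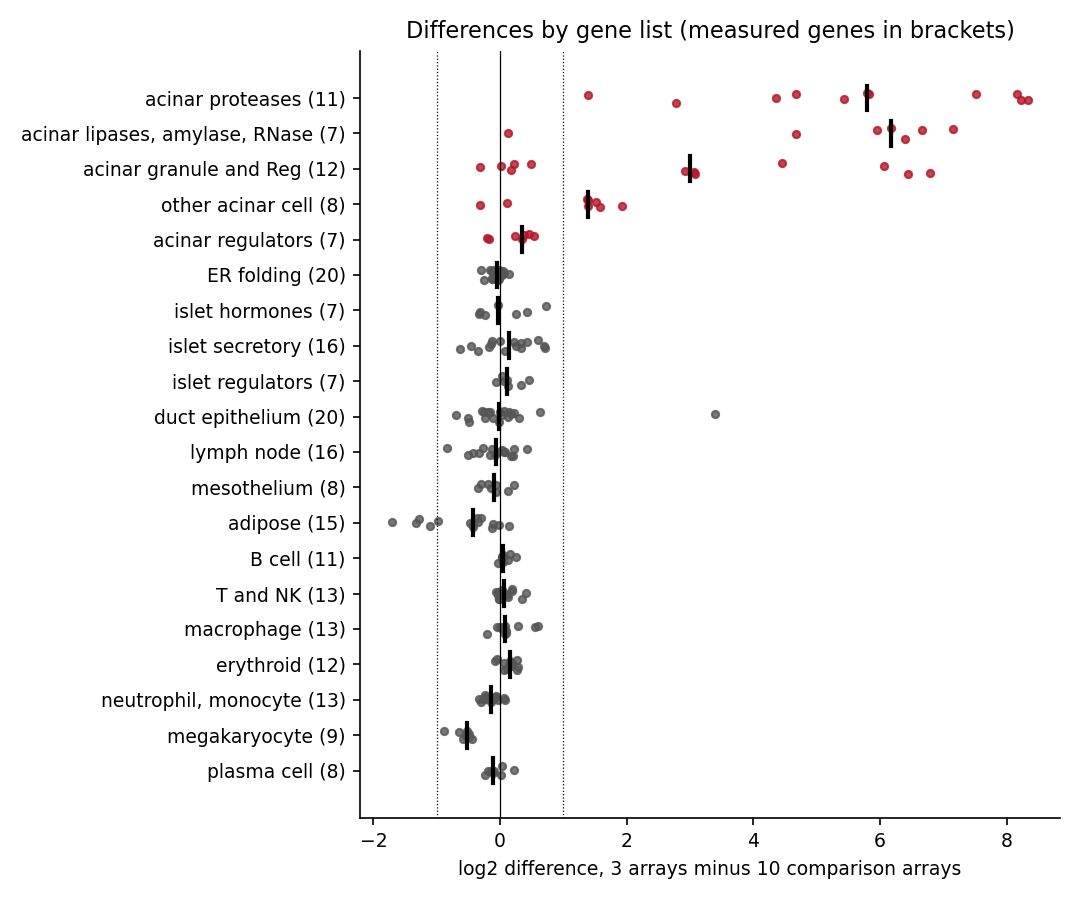
Differences of single genes (points) by list, as log2 of the 3 arrays minus the 10, with the list median as a bar, dotted lines at 2-fold and the number of measured genes in brackets. The enzyme and granule lists (red) reach beyond 4, the acinar regulators and the folding genes stay near 0, and 1 duct gene, Tff2, stands apart.

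The 13 lower genes were all dim. Their comparison means were 5.49 to 7.39, below the all-gene median of 8.19, and their differences ran from -1.02 to -1.79. None is on a list. Cphx3, a homeobox gene, had the largest difference, with 5.40, 4.77 and 6.29 against 6.47, 7.25 and 8.11. Krt6a, a keratin of stressed epithelium, differed by -1.64. Cck, which encodes the hormone that Cckar receives, read 4.14, 4.16 and 4.63 against 4.97, 6.06 and 6.53, a difference of -1.52.
The others of the 12 largest were Lrrc46 (-1.46), Cplane2 (-1.31), Has2 (-1.29), Rims2 (-1.28), Mvk (-1.24), Gm4349 (-1.16), Cort (-1.13), E330012B07Rik (-1.10) and Cplx4 (-1.05), with roles from hyaluronan synthesis (Has2) to mevalonate metabolism (Mvk). With a pseudocount of 64, 2 genes were lower in place of 13, and no gene with a comparison mean of at least 8 was lower by 2-fold without overlap.

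How far spleen transcripts were diluted cannot be read from these values, because each array has the same trimmed mean, which holds such a median near 0. Over the 9495 genes that were not acinar and had a comparison mean of at least 8, the median deviation from the comparison mean was 0.024 in ART8, 0.002 in NON5 and 0.004 in NON6, and the 10 ran from -0.008 to 0.025. Only 2 such genes, Pigk (-0.56) and 5430416N02Rik (-0.51), were lower by 0.5 or more without overlap. Of the brighter genes off the acinar lists, 1 was higher by at least 0.5 without overlap. This was Dnase1l3, a nuclease of macrophages and dendritic cells, at 10.61, 10.91 and 10.56 against 9.36, 10.12 and 10.18. In the spleens outside both sets Dnase1l3 ran from 9.44 over a median of 10.27 to 11.14. That range holds all 3 acinar-positive values, so the absence of overlap applies to the 10 comparison spleens only. Pigk, 5430416N02Rik and Dnase1l3 were picked after their values were seen. The 10 housekeeping genes had a median difference of -0.09, with 9 negative. Their median deviations of -0.17 in ART8, -0.05 in NON5 and -0.08 in NON6 lay below the comparison range of -0.03 to 0.14. Within arthritic mice, with ART8 alone, 8 of the 10 were negative, and within non-arthritic mice 5.

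The 71 genes of 6 spleen lineages had a median difference of 0.04, and no gene of them was free of overlap in either direction. B cell genes (0.05, 11 genes), T and NK cell genes (0.06, 13 genes) and macrophage genes (0.08, 13 genes) were level. Cd79a, a B cell receptor subunit, read 13.08, 13.08 and 12.93 against 12.50, 13.06 and 13.39, and Cd3e of the T cell receptor 9.38, 9.88 and 9.66 against 8.86, 9.58 and 10.22.
The myeloid and platelet lists differed between the 3 spleens instead. Neutrophil and monocyte genes had a median deviation of -0.17 in ART8, -1.24 in NON5 and 0.80 in NON6, about the whole span of the 10 (-1.22 to 0.85). Camp, a granule peptide of neutrophils, read 12.78, 11.25 and 14.03. Megakaryocyte genes were negative in 9 of 9, with a median of -0.52, against a comparison set in which 8 of 10 mice were arthritic. Within arthritic mice, where ART8 alone stands against the comparison spleens, 9 of 9 were negative (median -0.60). Within non-arthritic mice, NON5 and NON6 against NON1 and NON2, 7 of 9 were positive (median 0.13). With so few spleens, the turn is not read as a difference between arthritic and non-arthritic mice. The neutrophil and monocyte list turned likewise, from -0.32 within arthritic to 0.63 within non-arthritic mice. In megakaryocyte genes NON5 (-1.44) lay below the lowest comparison value of -0.85 while NON6 (0.23) did not. Vwf, von Willebrand factor, had the largest difference there, -0.88. Erythroid genes were at 0.34, -0.38 and 0.52. No lineage list lay above or below the 10 in all 3 acinar-positive spleens.

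**Figure D5:**
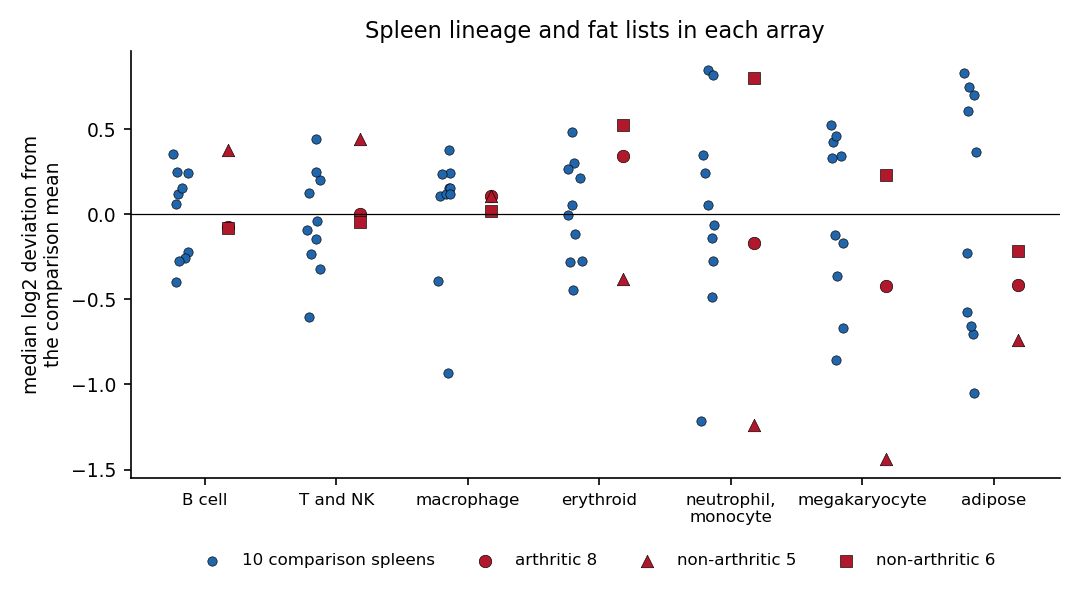
Median log2 deviation of 6 spleen lineage lists and the adipose list from the comparison mean, for the 10 comparison arrays (blue) and for ART8, NON5 and NON6 (red circle, triangle and square). None of the 7 lists drawn has all 3 red symbols on one side of the blue range, and NON5 lies farthest outside it, for megakaryocyte genes.

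The median difference of the 45 acinar list genes was 2.71 within arthritic and 2.69 within non-arthritic mice, while single genes varied. Prss3 differed by 5.75 within arthritic and by 3.56 within non-arthritic mice, and Rnase1 by 6.76 and 5.03. Ctrb1 differed by 8.49 between ART8 and the 8 arthritic comparison spleens and by 7.66 between NON5 and NON6 and the 2 non-arthritic ones. For Cela3b these were 4.53 and 4.25, and for Tff2 3.36 and 3.75. With so few arrays many more genes passed 2-fold without overlap, 168 higher among arthritic and 296 among non-arthritic mice, and 30 and 31 of the 31 genes were among them. The 31 were called from these same arrays without overlap, so only the 2-fold limit could drop one, and nothing is read from that sharing. All 33 other arrays as the comparison gave 28 higher genes, 27 of them shared.

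The other spleens held at most a trace of acinar message. The 67 higher probe sets made up 0.0120% to 0.0269% of the signal in the 23, and NON7 was the highest. NON7 was above all 10 comparison arrays in 7 of the 27 higher acinar genes and the highest of the 23 in 9. Cela3b was 8.16 ± 0.38 (SD, n = 10) in the comparison arrays and 7.30 ± 0.45 (SD, n = 23) in the others, a gap of 0.86. This was its brightest probe set, with a comparison median of 8.3. Its other probe sets had comparison medians of 4.84, 6.02 and 6.67, and the gap was not taken for them. The other arrays lie in the other control clusters, so set and cluster cannot be told apart. The gap was 0.41 for Prss2, 0.30 for Ctrl, 0.15 for Zg16 and Ctrc and 0.14 for Cel, all in the same direction.

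The 23 arrays, which the choice did not use, allow a test of whether genes follow the mean level of the 6 markers there. limma with arthritis and control cluster as terms called 0 of 27022 probe sets (0%) at an adjusted p under 0.05, with 1999 at an unadjusted p under 0.05 and a lowest adjusted p of 0.321. The probe sets of the 6 markers, which make up that mean level, were among those tested. Simulated slopes of 1 log2 per unit were recovered for 70 of 100 probe sets and slopes of 0.5 for 24 of 100. The simulation took the acinar level as free of error. No marker was called, at slopes of 0.59 (Cela3b) to 1.40 (Prss2) and limma adjusted p of 0.494 to 0.632. The recovery may thus overstate what the test could find, and nothing is read from the 0 calls. Among acinar genes outside the markers, Reg2 had a slope of 1.10 (SE 0.30, limma adjusted p = 0.629). The genes with the smallest p were Tyms, of thymidylate synthesis, at 0.75 (SE 0.15, limma adjusted p = 0.365), and 3830406C13Rik at -0.69 (SE 0.15, limma adjusted p = 0.477). Erythroid genes had a median slope of 0.39 with 0 of 11 called, beside -0.03 over all 12427 genes tested.

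The 3 spleens sit unevenly in the study's own comparison, and leaving them out changed its count. In all 36 arrays limma called 13 of 27022 probe sets between arthritic and non-arthritic spleens (0.0481%), and in the 33 without them 236 (0.873%), 153 higher and 83 lower in arthritic mice, with all 13 among them. Keeping the 3 and adding the acinar level as a covariate gave 215, of which 170 were shared with the 236. That level was 11.90 to 13.53 in the 3 and at most 7.80 in any other array. The covariate thus acts much like leaving the 3 out, and nothing is read from the sharing. Leaving out NON5 alone gave 250, NON6 alone 20 and ART8 alone 0. With the control cluster as a block the count was 0 with and without the 3, at 3221 and 3271 probe sets with an unadjusted p under 0.05.
Il12a, a subunit of interleukin 12, was higher in arthritic spleens by 0.39 (SE 0.07, limma adjusted p = 0.0216) in the 33 and by 0.35 (SE 0.07, limma adjusted p = 0.0485) in the 36. Snx5, a sorting nexin, was higher by 0.39 (SE 0.07) and 0.37 (SE 0.07). Bid, a pro-apoptotic Bcl-2 family protein, was higher by 0.38 (SE 0.07) and 0.34 (SE 0.07). Brd3, a reader of acetylated histones, differed by -0.56 (SE 0.10, limma adjusted p = 0.0216) in the 33 and by -0.48 (SE 0.10, limma adjusted p = 0.0569) in the 36.
Of the 27 higher acinar genes, 12 were among the probe sets tested between arthritic and non-arthritic mice, and limma called 0 of them, with a lowest adjusted p of 0.585 in the 36 arrays and 0.247 in the 33. The 27 were picked for their values in the 3 spleens, which the 36 arrays include, so nothing is read from the 0 calls there. The median SE of the 12 was 0.47 in the 36 and 0.20 in the 33. The other 15 fell below the filter, which used the mean over all 36 arrays in both fits. In a fit of all 45037 probe sets, the median difference over the 27 genes was -0.31 with a median SE of 0.56 in the 36 arrays, and -0.00 with 0.23 in the 33. In that fit the lowest limma adjusted p of the 27 was 0.666 and 0.318.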

How the data were processed

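Total RNA of single spleens was measured on Affymetrix arrays. The authors deposited linear intensity values, for which the submitters' processing notes name MAS5. The version is not stated in the sources used here. Each array has a 2% trimmed mean of 500.0. Columns were matched to samples by the deposited accession, with 0 left over. Of 45101 probe sets, 64 controls were dropped, 34945 name 1 gene, 932 several and 9160 are unlisted and unnamed. Of the 34945, 34741 matched the reference table (GRCm38.p6) by gene identifier.

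Values were used as log2(intensity + 16), with the brightest probe set standing for each of 18193 genes and no filter on low values for the 3 against 10. A gene was called when it passed 2-fold without overlap. Tests used limma 3.58.1 (R 4.3.3; lmFit, eBayes with trend, Benjamini-Hochberg, two-sided, threshold 0.05) on 27022 probe sets above the 40th percentile of the mean, and no label says whether mice share a cage or litter. The tests were tested on simulated data. Of 323 listed genes, 282 were measured. Python 3.11.15 with numpy 2.4.6, pandas 2.3.3, scipy 1.17.1 and matplotlib 3.10.9 did the rest.

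Members, lists and rules were chosen with earlier results of these data known. Named genes are the 6 markers, the 12 largest differences without overlap in each direction, up to 4 members of a list, defining markers such as Ins2 and Adipoq, and up to 6 genes of each test in each direction. Others are named as part of a list's count or because they were singled out after their values were seen. Control clusters come from Ward clustering of 18 hybridisation control probe sets, each centred by row and array. Same-numbered arthritic and non-arthritic arrays were checked for pairing. The 18 correlations of their deviations ran from -0.23 over a median of 0.15 to 0.47, with 11 over 0.1. The labels do not say what the numbers mean, so a pairing of the mice is not established and was not used in the main fits. Alternatives covered the pseudocount, filter, normalization, comparison set, probe set rule, blocks and single arrays left out.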

Additional observations from a re-analysis of the deposited data

Results flagged for a closer look

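A sample far from the others was looked for in 68 sets of values over the 10 comparison arrays, the 44 called genes and the 24 list medians, and 5 were found. Chance flags about 1 in 20 such sets. Pnliprp2 was highest in ART4 at 6.06, against a next value of 4.87, still below the 9.85 of NON6. Ctrc was lowest in NON1 at 5.34, with the next at 6.80. The list median of islet regulators was highest in ART1, at 1.24 above the comparison mean against a next value of 0.17. Duct and epithelial genes were highest in NON1, at 0.58 against 0.17, and housekeeping genes in ART1, at 0.14 against 0.03. Over all 45037 probe sets, 0.149% were higher in the 3 spleens without overlap and 0.0955% lower. Among probe sets that stand for several genes, 4 of 932 were higher (0.429%), by 6.13 to 8.57, and 0 were lower. Among probe sets the annotation does not list, 9 of 9160 were higher (0.0983%), by 1.13 to 7.82, and 14 were lower (0.153%). In the 23 arrays outside both sets, NON7 stood above all comparison arrays in 7 of the 27 higher acinar genes.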

How the results depend on the processing

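The 6 marker differences ran from 3.94 to 6.75 over 42 other settings, and Zg16 moved past its spread once, to 5.82 with a pseudocount of 64. Their direction was the same in 42 of 42. The 3 spleens were chosen by these markers, so the direction could hardly turn and nothing is read from that count. The count of higher genes, 31, became 13 with the filter on low values (which drops genes bright in 3 arrays only), 92 with arthritis as a term and overlap not used, 296 in non-arthritic and 168 in arthritic mice alone. The count of lower genes, 13, became 2 with a pseudocount of 64, 4 with the filter, 8 after quantile normalization, 8 with the mean over probe sets, 1 against all 33 other arrays, 222 with arthritis as a term, 550 in non-arthritic and 499 in arthritic mice alone. Leaving out 1 of the 3 spleens gave 47 to 64 higher genes and 39 to 77 lower ones. Among settings chosen after seeing the data, genes with a mean of at least 8 in either set gave 0 lower genes and an acinar median of 5.44, and genes with that mean in the comparison arrays gave 5 higher, 0 lower and an acinar median of 1.39. Centring each array on its median moved the median of all genes to 0.034. The covariate test gave 1 call with Cela3b alone in place of the 6 markers, and 0 without NON7. The probe set of Cela3b was itself among those tested, so the 1 call is not read as another gene following it.

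The arthritis count of 13 became 236 without the 3 spleens, 215 with the acinar covariate, 0 without the filter and 1 after quantile normalization. Leaving out 1 of the 3 spleens gave 0 to 250. The control cluster as a block gave 0 with and without the 3. With a replicate block it was 369, and 45 without the 3 spleens. Whether the numbers pair the mice is not established: 2 of 18 arthritic arrays correlated best with their own number. The causes of these moves were not tested. No depth is stated for arrays, and dim probe sets limit the lower genes.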
